A study of Homo sapiens with 27 samples.

Results

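The positions described here are guanines at which the marks of O6-MeG-seq recurred in purified (naked) DNA treated with temozolomide (TMZ). A member is a position and strand on chromosomes 1 to 22 that was listed at G, with a score of 30 or more, in naked DNA replicate 1 and again in naked DNA replicate 2 or 3. There were 209194 members, 0.383% of the 54616079 distinct autosomal G positions of that score in all 27 libraries. Members were chosen by the base and score listed for naked DNA alone, and no cell library entered the choice. Of these, 102612 were shared by replicates 1 and 2, 110781 by replicates 1 and 3, and 4199 (2.01%) by all 3. The overlap of replicates 1 and 2 was 2.56 times the number that lists of their size share by chance. That of replicates 1 and 3 was 2.44 times. Part of the members is therefore expected from coincidence alone, and single members cannot be sorted by this. Members made up 2.37% of the 8822222 G sites of replicate 1. The other 8606018 positions that neither further naked DNA library listed at G, at any score, served as the comparison and are called non-recurring.

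TMZ is an alkylating drug used against glioblastoma. It breaks down to a methylating species that attacks several positions of DNA, among them the O6 atom of guanine. O6-methylguanine pairs with thymine when DNA is copied, which draws mismatch repair to the site and makes the lesion toxic and mutagenic. The repair protein MGMT takes the methyl group off the base and onto itself. Naked DNA carries no chromatin and undergoes neither transcription nor repair.

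The study mapped O6-methylguanine at single bases in LN-229, a glioblastoma line, either transfected with MGMT or carrying the transfection control, which the labels call WT. Cells were given 1 mM TMZ or 1% DMSO as solvent, 1 time or 3 times spaced by 4 h. Their DNA was collected once 24 h had passed since exposure began, with 3 biological replicates per group. The 3 naked DNA samples received 1 mM TMZ, and their DNA came from non-transfected WT cells (replicate 1), WT cells (replicate 2) and MGMT-transfected cells (replicate 3). DNA fragments were enriched with an antibody to the lesion and the site was marked by a stalled polymerase.

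Libraries held from 1347019 to 15745885 listed sites. Sharing of sites at bases other than G was used to find libraries that stood apart. All 4 cell libraries of replicate 1 after 1 exposure shared such sites with naked DNA replicate 1 at 2.43 to 65.2 times the median of the 351 pairs of libraries, and they were left out of the comparisons. The 20 libraries kept (n = 2 per group after 1 exposure, n = 3 after 3) shared them with naked DNA at 0.697 to 1.24 times the median pair. Among themselves the kept libraries shared such sites at up to 30.9 times the median pair (WT and MGMT solvent replicates 1 after 3 exposures), with 39 of 190 pairs above 1.6 times. TMZ and solvent libraries shared them at up to 17.4 times (16 of 100 pairs above 1.6 times). Naked DNA replicates 2 and 3 shared them at 2.47 times, slightly above the 2.43 times of the left-out WT TMZ library with naked DNA replicate 1. By this sharing the kept libraries fell into 3 sets, called sets 2, 3 and 4 below, joining pairs that shared more than 1.6 times the median, a limit chosen with these values known.

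The sequence around members was read from RefSeq promoters of GRCh38.p14, which span 250 bases before to 50 bases after a gene's start. The 33725 promoters used lie on all autosomes but 1. They held 1522 of the 198160 members on those chromosomes (0.768%), against 0.598% of non-recurring positions there. All 50203 listed positions of both kinds that fell there matched a G of the sequence on their strand. The 10 windows that follow are those of the members upstream of a start that were marked in the most TMZ cell libraries, so they were chosen after their values were seen. Each runs 5′ to 3′ on the marked strand, with the marked G and its neighbours in capitals.
LOC105373614 (chr2:129587801-129587821, plus strand): cccagcccaGGCaggaggtgc
NPR1 (chr1:153678612-153678632, plus strand): tcggagcttGGCtcgggtcct
RNF150 (chr4:141133618-141133638, minus strand): cctagattaAGTcgccgattg
ESAM-AS1 (chr11:124759010-124759030, minus strand): gggttaataGGTaaccagacg
FLJ30679 (chr16:86555095-86555115, minus strand): gaccggtgaGGGtcgaggcgg
PLIN3 (chr19:4867826-4867846, plus strand): tgaagtccgGGAaggactcca
ZGPAT (chr20:63707217-63707237, minus strand): gggacgaggAGTcgggaatgg
PDE1C (chr7:32070881-32070901, minus strand): cgggtgcgcGGCgtccgggtc
LOC105378250 (chr12:53739443-53739463, minus strand): agagcaagaAGTggctctggg
S100PBP (chr1:32817590-32817610, plus strand): ctgactcggGGTaggggaggt
A purine stood before the marked G in all 10 windows. The member in the promoter of LOC105373614, on the strand opposite to the gene and 113 bases upstream of its start, was marked in 5 of 10 TMZ libraries. The members at NPR1, which encodes a receptor for natriuretic peptides, at RNF150, ESAM-AS1, FLJ30679, at PLIN3, which encodes a lipid droplet protein, and at ZGPAT were marked in 3. Those at PDE1C, a cyclic nucleotide phosphodiesterase gene, LOC105378250 and S100PBP were marked in 2, and the first 2 of these were listed in all 3 naked DNA libraries. None of the 10 was marked in any of the 10 solvent libraries kept, but ties in TMZ libraries had been broken by fewer solvent libraries and then by presence in all naked DNA libraries, so the order itself favours both. Of all members only 1.15% were marked by any kept solvent library, so the absence of such marks does not set these 10 apart.

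Over all members in promoters the base before the G was the main feature that set them apart. A purine preceded the G in 92.0% of the members with a known neighbour (1397 of 1518), G in 59.0% and A in 33.0%. It preceded 77.3% of non-recurring positions and 58.4% of the 5203011 G positions of the promoters. All 27 promoter members listed in the 3 naked DNA libraries had a purine there. The base after the G differed less: C followed 28.9% of members and 29.9% of all promoter G positions, and G followed 40.9% and 33.1%. Farther away, the largest departure was at the third base after the G, where a further G stood in 45.4% of members, 36.6% of non-recurring positions and 32.6% of all promoter G positions. The members were chosen in naked DNA, so these shares describe them and carry no test.

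Members per 100000 promoter G positions ranged 25.2-fold over the 16 contexts of a G and its neighbours. They were most frequent in GGG (62.1), GGT (56.1), GGC (53.9) and AGG (48.1), and least frequent in CGT (2.46), TGA (2.73) and CGA (3.24), against 29.3 over all contexts. Every context with a purine before the G (28.4 or more) lay above every context with a pyrimidine there (10.1 or less). Of runs of 5 bases centred on the G that occur at least 1000 times in promoters, the densest were AGGGT (108), AGGGA (96.4) and AAGCG (90.7), which rest on 20, 34 and 10 members.

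Over all autosomes the neighbour was known where a kept solvent library had marked it. At those positions a purine preceded 90.2% of the 3788 members with a known neighbour and 75.3% of the 123721 non-recurring positions. With all kept cell libraries as the source it preceded 95.5% of 19556 members and 84.1% of 444334 non-recurring positions. Such shares are weighted to bases that these libraries mark.

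It was then asked how often cells mark the same guanines. For each cell library the members among its G sites (score of at least 30) were counted and divided by the number chance gives, which is the number of members times the library's own G sites over the autosomal G positions. The latter were taken as 1125293380, from 2744618000 covered bases and an assumed GC content of 41%. This constant is the same for every library and cancels between them. Intervals are exact 95% Poisson intervals and cover counting error only.

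TMZ-treated cells marked the members several times as often as chance gives, and solvent controls did so less. In WT cells after 1 exposure to TMZ, 2259 members were marked in replicate 2 and 3607 in replicate 3, which is 6.47 times (6.21 to 6.75) and 7.37 times (7.14 to 7.62) the number chance gives. After 3 exposures WT cells had 5047, 8759 and 7885 members, or 7.71, 8.60 and 8.52 times. In MGMT cells the values were 5.03 times (4.69 to 5.38; 811 members) and 8.11 times (7.76 to 8.47; 2021 members) after 1 exposure. After 3 exposures they were 7.25, 7.64 and 8.69 times, from 3735, 7596 and 4576 members. All 10 TMZ libraries lay above 5 times, and the lowest was MGMT replicate 2 after 1 exposure.

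Solvent controls of WT cells had 2.42 and 2.59 times the number chance gives after 1 exposure (359 and 345 members), and 3.81, 2.40 and 2.62 times after 3 (189, 238 and 130 members). In MGMT cells they had 2.45 and 2.75 times (297 and 211 members), and 2.26, 2.86 and 3.09 times (285, 317 and 150 members). TMZ and solvent libraries did not overlap. The highest solvent value, 3.81 times (3.28 to 4.39), was that of WT replicate 1 after 3 exposures, which also had the highest G share among the solvent libraries kept (23.7% of sites with a score of 30 or more, against 18.99% to 22.1% in the others). Its sites at other bases were shared with the WT and MGMT TMZ libraries of replicate 1 after 3 exposures at 17.4 and 17.0 times the median pair. The part of either in its high value was not tested.

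The mean was 7.54 ± 1.12 times (SD, n = 10) under TMZ and 2.72 ± 0.452 times (SD, n = 10) under solvent. On the log2 scale the difference was 1.47, a ratio of 2.77, and all 10 TMZ libraries lay above all 10 solvent libraries (two-sided exact permutation of labels among libraries of like genotype and exposure, p = 0.000139, the smallest this design allows; Benjamini-Hochberg adjusted over 7 single-value comparisons, 0.000972). Without the WT solvent library at 3.81 times it was 1.52. The G share of all sites separated the groups as fully, at 32.6% to 64.1% in TMZ libraries and 18.99% to 23.7% in solvent libraries, and its part in the difference was not tested. The difference was 1.29 within set 2 and 1.62 within set 3, and set 4 held solvent controls only. With replicate 1 after 1 exposure included, the difference was 0.98 and did not pass (exact permutation test, p = 0.0618; adjusted 0.108). With the chance rate taken from each library's own G sites in the same bin of 1 Mb it was 1.39, and relative to non-recurring positions it was 0.95, and both passed. None of these values matches the bases beside the G. In promoters, pooled counts gave a ratio of TMZ to solvent of 1.81, and of 1.32 with those bases matched, as described below.

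**Figure D1:**
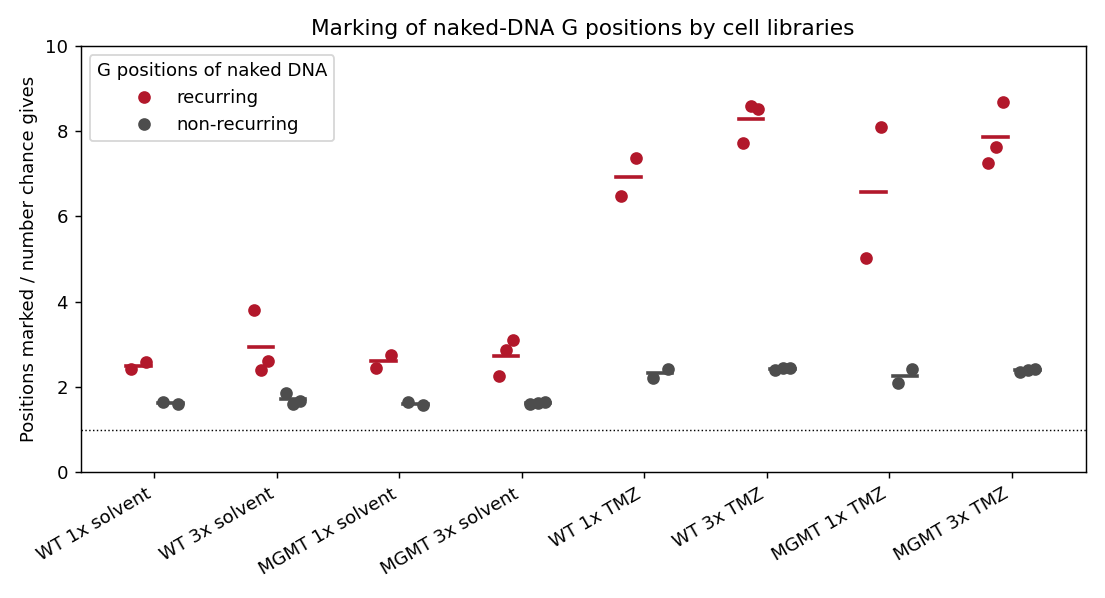
Number of naked-DNA G positions marked by each kept cell library over the number chance gives (y axis, linear; dotted line at 1), for recurring (red) and non-recurring (grey) positions in the 8 cell groups; points are libraries and bars are group means (n = 2 after 1 exposure, n = 3 after 3). Recurring positions lie between 5.03 and 8.69 under TMZ and between 2.26 and 3.81 under solvent, while non-recurring positions stay between 1.58 and 2.45.

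Non-recurring positions of the same naked DNA library were marked 2.36 ± 0.117 times (SD, n = 10) as often as chance gives under TMZ and 1.65 ± 0.0785 times (SD, n = 10) under solvent. Relative to them, members were marked 3.16 times as often by TMZ libraries, a mean log2 ratio of 1.66 that ran from 1.26 to 1.84 in 10 of 10 libraries (exact two-sided sign-flip test, p = 0.00195, the smallest allowed; adjusted 0.00342). In solvent libraries the ratio was 1.64, a mean log2 ratio of 0.71 that ran from 0.49 to 1.04 in 10 of 10 (exact sign-flip test, p = 0.00195; adjusted 0.00342). Both sets of positions had been fixed by naked DNA alone. Bases near members were also marked more often than bases near non-recurring positions. Over the 40 distances within 20 bases the ratio had a median of 1.38 under solvent (1.22 to 1.76) and 1.39 under TMZ (1.24 to 2.62). The ratios at the position thus include an excess shared with its surroundings, which is most of the excess under solvent. The permutation tests above and below take libraries as independent units, and so do the sign-flip tests, apart from those on pairs of libraries. The kept libraries share sites at other bases within their sets, and the p-values of both kinds of test do not allow for that.

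TMZ libraries marked positions listed in all 3 naked DNA libraries more often than those listed in 2. The 204995 members shared by replicate 1 and 1 other were marked between 4.86 and 8.34 times the number chance gives by TMZ libraries. The 4199 members in all 3 naked DNA libraries were marked 23.2 ± 4.77 times (SD, n = 10), from 12.97 to 29.98. The mean log2 ratio between these classes was 1.67, from 1.41 to 1.97 in 10 of 10 libraries (exact two-sided sign-flip test, p = 0.00195, the smallest allowed; adjusted 0.00342). Under solvent the positions in all 3 were marked 4.65 ± 1.23 times (SD, n = 10), but these values rest on 3 to 17 positions per library, and in 1 of them (MGMT replicate 3 after 3 exposures) the value, 3.08 times, was no higher than the 3.09 times of the other members. No test was made of the solvent values. The positions in all 3 need both naked DNA replicates 2 and 3, which share sites at other bases as given above.

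**Figure D2:**
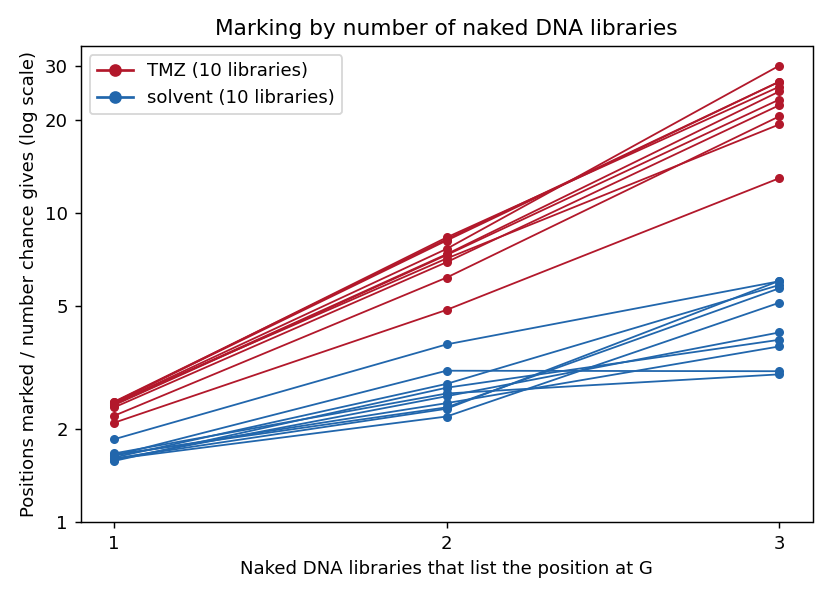
Positions marked over the number chance gives (y axis, log scale) against the number of naked DNA libraries that list the position at G (x axis), with 1 line per kept cell library. TMZ lines (red) climb from between 2.10 and 2.45 to between 12.97 and 29.98, and solvent lines (blue) end between 3.01 and 6.04.

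The rule's limits were looked at once, without a test. Members whose lower score was 30 to 34 (6455 positions) were marked between 6.83 and 9.10 times by TMZ libraries and between 3.26 and 7.83 times by solvent libraries. Positions just outside, with a lower score of 20 to 29 (12812 positions), were marked between 4.76 and 5.84 times and between 2.14 and 5.66 times. TMZ and solvent libraries overlapped in both classes. In the first, only WT solvent replicate 1 after 3 exposures, at 7.83 times, reached the TMZ range. In the second, only MGMT solvent replicate 2 after 1 exposure, at 5.66 times, did so. The 85851 positions shared by naked DNA replicates 2 and 3 and missing from replicate 1 were marked between 5.22 and 9.36 times by TMZ libraries and between 2.03 and 3.34 times by solvent libraries.

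Positions recurring in naked DNA at bases other than G were far fewer, 13028 with 68 in all 3 libraries. With chance taken over the 4363942620 covered positions at other bases, cell sites at other bases marked them 11.3 ± 2.91 times (SD, n = 10) the number chance gives under TMZ and 6.24 ± 1.10 times (SD, n = 10) under solvent, from 17 to 131 positions per library. Both means lie above those of the members. Non-recurring positions at other bases were marked 2.47 ± 0.269 times (SD, n = 10) and 1.99 ± 0.0843 times (SD, n = 10). The ratio of recurring to non-recurring positions was thus 4.51 ± 0.804 (SD, n = 10) under TMZ and 3.13 ± 0.490 (SD, n = 10) under solvent. It was larger at other bases than at G in all 20 libraries, so a higher marking of recurring positions is not particular to G. With the value at G divided by that at other bases, the log2 difference of TMZ and solvent fell to 0.64 and still passed (exact permutation test, p = 0.000139; adjusted 0.000556).

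After 3 exposures to TMZ the members were marked 8.07 ± 0.610 times (SD, n = 6) the number chance gives and after 1 exposure 6.75 ± 1.33 times (SD, n = 4). The difference was 0.28 on the log2 scale and missed the threshold (two-sided exact permutation of labels within each genotype, p = 0.06; adjusted 0.084), and the groups overlapped. It was 0.39 within set 2 and 0.11 within set 3. The G share of these libraries moved with it: it was 32.6% and 41.9% in the libraries with the lowest enrichment, 5.03 and 6.47 times, and 44.0% to 64.1% in the other 8, of which the library at 44.0% had 8.11 times. The part of the G share in this result was not tested. With the value at G divided by that at other bases the sign turned, to -0.37. It turned too with replicate 1 after 1 exposure included, to -0.15, and without replicate 2 the difference was 0.053.

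MGMT is the enzyme that reverses the lesion, so the genotypes were compared. Under TMZ the members were marked 7.34 ± 1.40 times (SD, n = 5) the number chance gives in MGMT cells and 7.74 ± 0.879 times (SD, n = 5) in WT cells. The log2 difference of -0.092 lay within the spread (two-sided exact permutation of labels at each number of exposures, p = 0.583; adjusted 0.681), with libraries from 5.03 to 8.69 times in MGMT and 6.47 to 8.60 times in WT cells. It was -0.23 within set 2 and -0.0023 within set 3. Without replicate 2 it was 0.025, and with replicate 1 after 1 exposure included 0.020. Divided by the value at other bases it was 0.20, so its direction is not settled. These values are relative to each library's own G sites and say nothing of the total amount of lesion.

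Under solvent the values were 2.68 ± 0.331 times (SD, n = 5) in MGMT and 2.77 ± 0.589 times (SD, n = 5) in WT cells, which is -0.031 on the log2 scale (two-sided, exact permutation, p = 0.867; adjusted 0.867). Without the WT library at 3.81 times it was 0.087, and without replicate 1 as a whole 0.15. With that library kept, it was 0.019 relative to non-recurring positions, so its direction is not settled.

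In promoters, where the sequence is known, marking of members was set against the library's own marking of promoter G positions in the same context of 3 bases. The 10 TMZ libraries together marked members 290 times, 5.56 times the number from all promoter G positions and 4.12 times (3.66 to 4.62) the number from positions in the same context. Non-recurring positions in promoters had 2.11 times and 1.76 times. By group, the same-context value of members in WT cells was 3.96 (2.72 to 5.56) and 4.00 (3.35 to 4.75) times after 1 and 3 exposures. In MGMT cells it was 4.65 (2.80 to 7.26, from 19 marks) and 4.25 (3.47 to 5.14) times. The intervals of the genotypes overlapped. Under solvent, members had 3.08 times the number from all promoter G positions and 3.13 times (1.79 to 5.08) that from the same context, from 16 marks in all and 3 to 5 per group. The ratio of TMZ to solvent in promoters was 1.81 against all promoter G positions and 1.32 against the same context, and the same-context intervals of TMZ and solvent overlapped.

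A purine preceded 78.6% ± 3.27 (SD, n = 10) of the promoter G sites of TMZ libraries, 56.5% ± 1.73 (SD, n = 10) of those of solvent libraries and 79.3% ± 1.32 (SD, n = 3) of those of naked DNA. Among promoter members themselves, it preceded 91.2% of the 1283 that no TMZ library marked, 95.9% of the 196 marked in 1 and 100% of the 39 marked in 2 or more.

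Under TMZ the excess of marks in cells was greatest at the member itself. At each distance of up to 20 bases on the member's strand, the share of members with a cell G site was divided by that of non-recurring positions. At the position itself the ratio under TMZ was 3.28 (3.25 to 3.31), from 46296 marks. It was 2.62 at the base before and 1.94 at the base after, where a further G may stand, and 1.67 at the third base after. Over the 40 distances other than 0 the median was 1.39 under TMZ and 1.38 under solvent. Under solvent the ratio at the position, 1.602 (1.54 to 1.67), did not exceed that of the base before it, 1.76 (1.66 to 1.86). These ratios do not allow for how often a G stands at each distance, while the position itself is always G. In promoters a G stood before 59.0% of members and 47.3% of non-recurring positions. At the third base after, the shares were 45.4% and 36.6%. The part of this in the ratios was not tested.

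**Figure D3:**
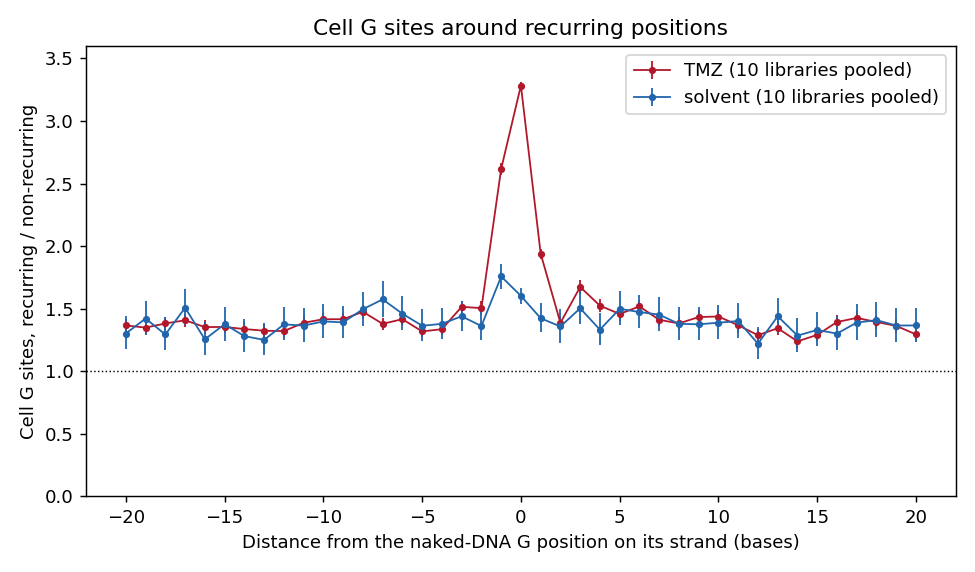
Share of recurring positions with a cell G site at a given distance on the same strand, divided by that share for non-recurring positions (y axis), against the distance in bases (x axis), for the 10 TMZ (red) and 10 solvent (blue) libraries pooled, with exact 95% Poisson intervals. The TMZ curve peaks at 3.28 at distance 0, while the solvent curve stays at or below 1.76.

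At least 1 of the 10 TMZ libraries marked 35875 members (17.1%), against 6.18% of non-recurring positions, and at least 1 of the 10 solvent libraries marked 2416 (1.15%), against 0.741%. At least 2 TMZ libraries marked 7829 members (3.74%) and at least 3 marked 1984 (0.948%), against 0.492% and 0.0566% of non-recurring positions. Rates of the single libraries, taken as independent, would give 3989 and 220.4 members, so the counts were 1.96 and 9.002 times as high. At non-recurring positions this excess was larger, 2.56 and 17.4 times, so it is not particular to the members. The libraries are not independent, since 13 of the 45 pairs of TMZ libraries shared sites at other bases at more than 1.6 times the median pair, up to 6.85 times, and the part of this sharing in the excess was not tested.

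The highest number was 7 of 10 TMZ libraries, reached by 4 members. The member at chr7:134546199 on the minus strand, outside any listed gene and listed in all 3 naked DNA libraries, was marked by 4 WT and 3 MGMT libraries and by no solvent library. The members at chr2:5759339 and chr7:137848328, both on the plus strand and outside listed genes, were marked by 3 WT and 4 MGMT libraries and by no solvent library. The member at chr17:26603956 on the minus strand was marked by 7 TMZ libraries and also by 2 solvent libraries.

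The next members by the same order, with 6 TMZ libraries and no solvent library each, lay partly in genes. These were chr1:234378215 in COA6, which encodes an assembly factor of cytochrome c oxidase, and chr17:82173284 in CCDC57. On chromosome 20 they were chr20:5769462 in SHLD1, a gene of the shieldin complex that shapes double-strand break repair, and chr20:61607837 in CDH4, a cadherin gene. All 4 were listed in the 3 naked DNA libraries, which the same order of ties favours, as it does the absence of solvent marks. In PIGK, a gene of the transamidase that attaches GPI anchors, chr1:77100879 was marked by 1 WT and 5 MGMT libraries. The other named members with 6 TMZ libraries were marked by 3 or 4 WT and 2 or 3 MGMT libraries. The member at chr7:65410463 lay outside listed genes. The gene table gives no exons, so exon and intron are not told apart, and these positions were ranked by their marks, which therefore carry no test.

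Protein-coding genes held 50.1% of members and 48.4% of non-recurring positions. At least 1 TMZ library marked 17.2% of the members inside genes and 17.1% of those outside. The MGMT gene itself (chr10:129467241-129770983) held 25 members and 1139 non-recurring positions, and TMZ libraries marked 3 of the 25 members.

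Members were unevenly spread over the autosomes, as was the number of naked DNA sites. Per 1000 G sites of naked DNA replicate 1 there were 35.9 members on chromosome 20 and 30.9 on chromosome 22, against 18.9 on chromosome 4 and 19.1 on chromosome 13. Chromosomes 20 and 22 also carried the most G sites of naked DNA replicates 2 and 3 (6944 and 6277 per Mb), and chromosomes 4 and 13 carried 2995 and 3042. With chance computed within the chromosome, members exceeded it 2.13-fold on chromosome 20 and 2.03-fold on chromosome 22. The values were 2.60-fold on chromosome 4 and 2.58-fold on chromosome 13. That chance took the same GC content of 41% for every chromosome, so differences in base content between chromosomes remain in these values. Copies of a chromosome in the line and how readily it is marked cannot be told apart here. At least 1 TMZ cell library marked 21.2% of the members on chromosome 20 and 18.3% on chromosome 22. The shares were 15.2% on chromosome 4 and 14.1% on chromosome 13, against 17.1% of all members.

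**Figure D4:**
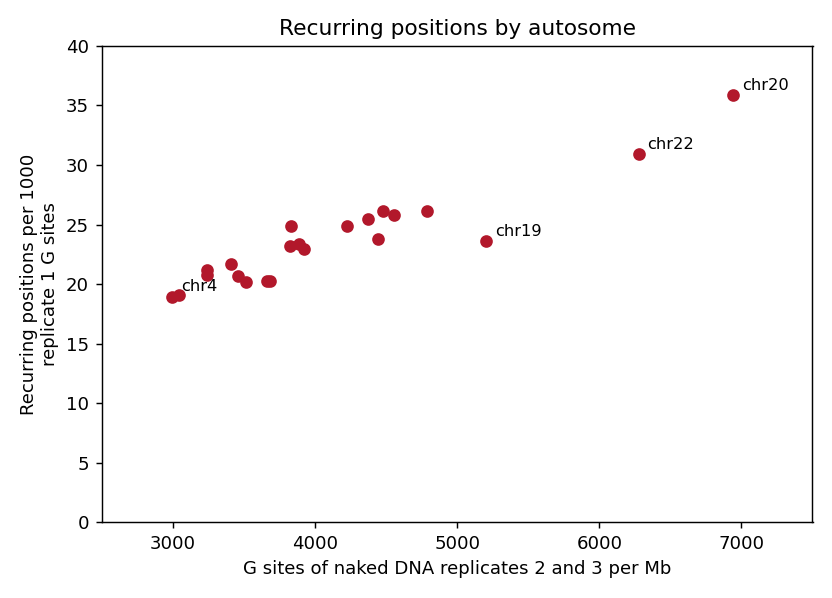
Members per 1000 G sites of naked DNA replicate 1 (y axis) against G sites of naked DNA replicates 2 and 3 per Mb of covered sequence (x axis), with 1 point per autosome. Chromosome 20 (35.9) and chromosome 22 (30.9) stand at the upper right, and chromosome 4 (18.9) at the lower left.

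Members also lay close to each other. The median distance from a member to its nearest neighbour on either strand was 3370 bp, where an even spread gives 4547 bp. Another member lay within 10 bp for 0.807% of members (0.152% if spread evenly), within 100 bp for 4.24% (1.51%) and within 1 kb for 22.4% (14.1%). Next to each other on the same strand, as in GG, were 268 pairs, 33.6 times the number an even spread gives, while non-recurring positions reached 4.22 times. Same-strand pairs 21 to 50 bp apart stood at 3.93 times and opposite-strand pairs at 1.83 times, against 1.69 and 1.37 for non-recurring positions. Non-recurring positions were thus not evenly spread either. Beyond 50 kb the values were 1.49 and 1.47 times, against 1.17 and 1.16 for non-recurring positions. Members without another member within 100 bp (200320) gave the same call for TMZ against solvent.

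**Figure D5:**
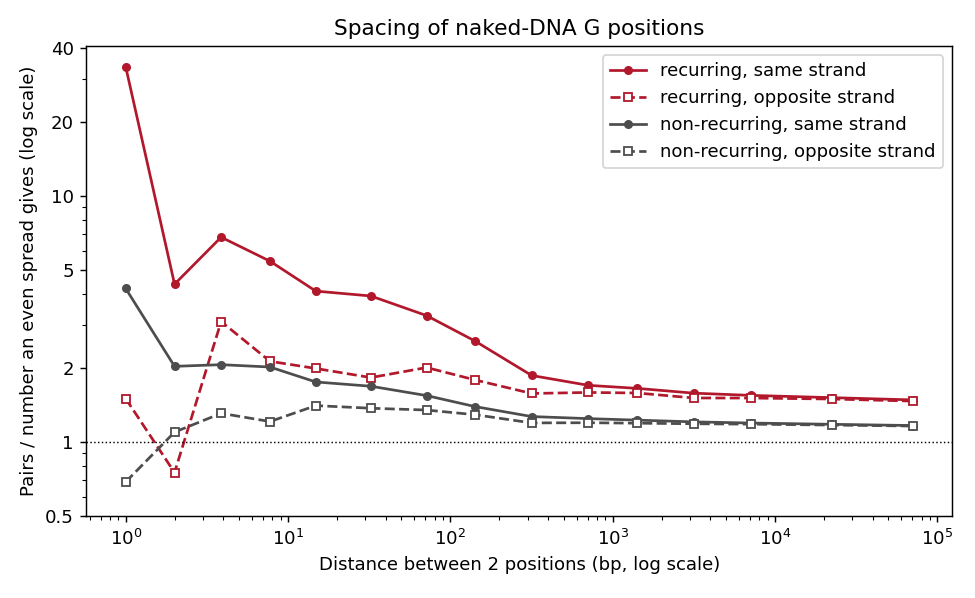
Pairs of positions at a given distance over the number an even spread gives (y axis, log scale) against the distance in bp (x axis, log scale), for recurring (red) and non-recurring (grey) positions on the same (solid) and opposite (dashed) strands. Recurring same-strand pairs start at 33.6 at 1 bp and level off near 1.49 beyond 50 kb.

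Of the 130403 windows of 10 kb with a member, 62.0% held 1, and 61 windows held 10 or more, with 691 members in all. At least 1 TMZ library marked 29.1% of the members in these dense windows and 17.1% of those elsewhere, and at least 1 solvent library marked 5.64% and 1.14%. Of the 5 densest windows named, the first were chr1:144100001-144110000 and chr15:20340001-20350000 with 24 members each, then chr16:46390001-46400000 with 16. None of the 3 held a listed gene. In the window on chromosome 1, TMZ libraries marked 14 of 24 members and solvent libraries 3, and in that on chromosome 15 they marked 6 and 3. In the window on chromosome 16, TMZ libraries marked 14 of 16 members and solvent libraries also 14. The window chr11:67370001-67380000, over CLCF1, a cytokine gene, and LOC100130987, held 15, of which TMZ libraries marked 7 and solvent libraries 0. The window chr11:68340001-68350000 in LRP5, a co-receptor of Wnt signalling, held 14, of which TMZ libraries marked 2 and solvent libraries 0.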

How the data were processed

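Site lists of 27 O6-MeG-seq libraries were used as deposited by the authors. They have no header, and each line holds the chromosome, a position counted from 0, the strand, the base and a score. Scores in the deposited lists are whole numbers between 0 and 42 whose meaning is not given in the sources used here. Each position and strand is listed 1 time, so how many reads support a site is unknown. Per the submitters' processing notes, FastQC 0.11.9, Trimmomatic 0.38 and 0.39, cutadapt, Bowtie2 2.3.5.1, GATK 4.2.0.0, SAMtools 1.12 and bedtools 2.29.2 and the build GRCh38 (hg38) were used, with no role or order given. Duplicate handling is not given in the sources used here.

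Lists were analysed in Python 3.11.15 with NumPy 2.4.6 and SciPy 1.17.1. Positions are printed counted from 1. Cell sites had a score of 30 or more. Libraries were grouped from the labels and compared on log2 values by exact permutation or sign-flip tests (threshold: adjusted p of 0.05). The calculation was tested on simulated lists, where the largest log2 error was 0.074. These lists were drawn evenly from the assumed number of G positions, so they cannot show how exact that number is. Depth per kept library was 261043 to 5477076 autosomal G sites. Named members are the 10 marked in the most TMZ libraries (ties by fewer solvent libraries, presence in all naked DNA, coordinates), the 5 densest windows of 10 kb, the 2 highest and lowest autosomes and MGMT. Chromosome 8 is not named, and its promoters were not used here. The members, lists and tests were chosen with earlier results of these data known. Alternatives changed the score minimum, the members, the chance rate, the libraries and the pairing.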

Additional observations from a re-analysis of the deposited data

Results flagged for a closer look

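The 4 cell libraries of replicate 1 after 1 exposure were outside the comparisons and marked members more often than any solvent library kept, of which the highest was at 3.81 times the number chance gives. The WT solvent library marked 44.4 times that number, the WT TMZ library 13.3 times, the MGMT solvent library 45.2 times and the MGMT TMZ library 19.9 times. Non-recurring positions of naked DNA replicate 1 were marked 44.2, 2.86, 40.3 and 11.2 times in the same order. Positions listed in naked DNA replicates 2 and 3 and not in replicate 1 were marked 2.70, 12.5, 3.87 and 9.15 times. In the same order these libraries shared sites at other bases with naked DNA replicate 1 at 65.2, 2.43, 62.6 and 15.6 times the median pair. That sharing was high where members and non-recurring positions were marked most, while positions missing from replicate 1 ran the other way. Its part was not tested.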

How the results depend on the processing

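Values are log2 differences. TMZ against solvent kept its direction under all 14 alternatives (0.64 to 2.33), none of which matched the bases beside the G. Members against non-recurring positions did so under all 9 in TMZ libraries (1.601 to 3.27) and all 10 in solvent libraries (0.61 to 1.45). With replicate 1 after 1 exposure included, the first was 0.98 and did not pass, the difference of 3 and 1 exposures turned to -0.15 and that of MGMT and WT under TMZ to 0.020. Leaving out each replicate, or the WT solvent replicate 1 after 3 exposures alone (chosen after seeing the data), gave 1.40 to 1.52 for TMZ against solvent, 0.053 to 0.45 for exposures, -0.21 to 0.025 for genotypes under TMZ and -0.16 to 0.15 under solvent. It gave 1.601 to 1.72 for members against non-recurring positions in TMZ libraries, 0.68 to 0.77 in solvent libraries and 1.66 to 1.70 for all 3 against 2 naked DNA libraries. Without replicate 2 or 3 the called differences did not pass (adjusted p 0.0547, exact permutation and sign-flip tests). Each unadjusted p there, 0.0139 for TMZ against solvent and 0.0313 for the others, was the smallest the fewer libraries allow, so this loss says nothing of stability. Divided by the value at other bases, the exposure difference was -0.37 and the genotype difference under TMZ 0.20. Over non-recurring positions the genotype difference under solvent was 0.019. The cause of these turns was not tested. The same-context comparison in promoters was not among the alternatives. It gave a ratio of TMZ to solvent of 1.32 (not on the log2 scale), with overlapping intervals. No minimum score gave 310142 members and a score of 40 or more gave 187470.

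Libraries of WT and MGMT cells with the same number moved together (r above 0.1 over 2696 bins of 1 Mb) in 7 of 12 pairs and those of the treatments in 6 of 12. The replicate number was not taken as pairing because not every pair did so and the labels name nothing shared. That 16 of 24 libraries correlated best with their own number is a hint from the data that some numbers share a source. The left-out libraries of replicate 1 after 1 exposure entered these correlations and the group means from which deviations were taken. Their part in the correlations was not tested. With the replicate number as a block, TMZ against solvent stayed at 1.47 (exact sign-flip p = 0.00195) and the exposure difference was 0.33 (exact sign-flip p = 0.125, the smallest allowed). That block crosses the sets, since replicate 2 lies in set 2 after 1 exposure and in set 3 after 3, and these pairs had r of -0.075 and -0.27. The genotype differences stayed at -0.092 and -0.031 (exact sign-flip p = 0.375 and 1). Depth limits solvent libraries most, in which 130 to 359 members were marked.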
